A study of Danio rerio with 12 samples.

Results

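The genes described here are those of motile cilia and of the axoneme, the microtubule core of a cilium or flagellum, in the brain of adult zebrafish. They were chosen by name, with earlier results of these data known. The rule took identifiers whose symbol begins with dnah, dnai, dnaaf, rsph, cfap, drc, spag, tekt or ropn followed by a digit. It also took, singly, spef1, spef2, foxj1a, foxj1b, ccdc39, ccdc40 and armc9. Of 32105 gene identifiers in the count table, 95 matched. Of these, 90 had more than 0.5 CPM, the count scaled to library size, in at least 4 of the 12 libraries and were kept among 19645 genes tested. Brains of male zebrafish aged 6 months were profiled by bulk RNA sequencing in 3 groups of 4 libraries. The first group carried the actb1::miR-29sponge transgene (actb1 sponge). The second carried kif5a::miR-29sponge (kif5a sponge), and the third was wild type. The sponge RNA holds sites that a microRNA, here miR-29, binds and is thereby sequestered on. As the names are written, the actb1 promoter, which is active in most cells, drives the sponge in the first line, and the promoter of kif5a, a neuronal kinesin gene, drives it in the second. The labels do not say how many founders each line descends from, nor whether libraries within a group are separate fish, so p-values measure the spread between libraries, which may be technical.

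A motile cilium beats because dynein motors slide neighbouring microtubule doublets past one another. Outer and inner dynein arms supply the force and are preassembled in the cytoplasm by dynein assembly factors before they enter the cilium. Radial spokes, the central pair of microtubules and the nexin-dynein regulatory complex pass signals that set the bending pattern, and tektins lie inside the doublet wall. In the vertebrate brain, ependymal cells at the ventricles carry motile cilia that move cerebrospinal fluid, and transcription factors of the foxj1 family switch on the motile program. Many neurons and radial glia carry a single primary cilium, which usually lacks the motility apparatus.

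The 90 genes kept were 37 cfap genes (cilia and flagella associated proteins), 12 dynein heavy chains (dnah), 9 dynein assembly factors (dnaaf), 8 sperm-associated antigens (spag), 6 radial spoke genes (rsph), 5 dynein intermediate chains (dnai), 3 genes of the nexin-dynein regulatory complex (drc), 3 tektins (tekt), 1 ropporin gene (ropn) and 6 chosen singly. Of these, 84 were above the minimum in all 12 libraries, and 2 would have failed without the libraries of 1 group. The 5 that did not pass were dnaaf3, a second DNAI1 identifier, DNAI2, drc12 and TEKT3. No identifier carried the symbol foxj1a. A gene with the symbol FOXJ1, a name that RefSeq lists as a synonym of foxj1a, falls outside the rule and averaged 14.9 ± 2.52 CPM in actb1 sponge, 14.8 ± 3.70 CPM in kif5a sponge and 17.0 ± 2.78 CPM in wild-type brains (SD, n = 4 each). It was not called in either line against wild type (log2 change -0.19 ± 0.19 SE in actb1 sponge and -0.20 ± 0.19 SE in kif5a sponge). Pairs of close paralogues (DNAH5 and dnah5l, dnah9 and dnah9l, SPAG9 and spag9a, spag1a and spag1b) are uncertain where the counting could split reads between them.

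Library totals ran between 20884576 and 33573243 counts. The brain label was checked against marker genes: the neuronal gene ELAVL3 averaged 223 CPM in actb1 sponge, 259 CPM in kif5a sponge and 254 CPM in wild-type libraries, and the radial glial gene GFAP averaged 229 CPM in actb1 sponge, 236 CPM in kif5a sponge and 245 CPM in wild-type libraries. Radial glial genes (9 identifiers) summed to 1838 to 2272 CPM in actb1 sponge, 1449 to 1960 CPM in kif5a sponge and 1432 to 1922 CPM in wild type. S100B held most of the sum, averaging 1427 CPM in actb1 sponge, 1115 CPM in kif5a sponge and 1118 CPM in wild type. Of the 8 tested in actb1 sponge against wild type, 4 were higher and 1 lower at an unadjusted p under 0.05 (edgeR). Over all genes tested, 7.8% were higher and 8.85% lower at that threshold. Choroid plexus genes (7 identifiers), which mark an epithelium of the ventricles that can also be ciliated, summed to 40.7 to 66.7 CPM in actb1 sponge, 56.7 to 84.0 CPM in kif5a sponge and 54.5 to 80.8 CPM in wild type. Of these, clic6 averaged 11.1 CPM in actb1 sponge, 7.82 CPM in kif5a sponge and 6.88 CPM in wild type. OTX2, the most abundant of them by group mean, averaged 33.3 CPM in actb1 sponge, 52.5 CPM in kif5a sponge and 46.7 CPM in wild type. TTR, a marker in mammals, was near 0 in all groups (means of 0.0209, 0.0242 and 0.0214 CPM in actb1 sponge, kif5a sponge and wild type). Genes of photoreceptors, which carry a modified cilium, split the libraries unevenly. The summed level of 27 photoreceptor identifiers was between 400 and 554 CPM in actb1 sponge libraries 1 to 3 and 215 CPM in actb1 sponge 4. It was 442 and 436 CPM in kif5a sponge 2 and 3, against 232 and 250 CPM in kif5a sponge 1 and 4, and lay between 195 and 222 CPM in wild type. Most of the low sums came from gnb1a, at 147 to 209 CPM over all libraries, and rp1l1a, at 24.0 to 42.3 CPM. The rest of the list therefore differed more between libraries than the sums do. No identifier of that list was at 0 in every library; its defining member GNAT1, rod transducin, ranged over 0.726 to 80.2 CPM in actb1 sponge, 0.872 to 59.8 CPM in kif5a sponge and 0.267 to 2.12 CPM in wild type. Leukocyte genes (16 identifiers) summed to 1128 to 2665 CPM in actb1 sponge, 872 to 1103 CPM in kif5a sponge and 908 to 2383 CPM in wild type, where libraries 2 and 4 were the high ones. Skeletal muscle genes (8 identifiers) summed to 16.9 to 92.8 CPM in actb1 sponge, 5.10 to 16.2 CPM in kif5a sponge and 8.49 to 55.4 CPM in wild type. Genes of the olfactory epithelium, which holds multiciliated cells, summed to 30.2 to 45.3, 42.5 to 48.1 and 36.9 to 48.5 CPM in the same order, mostly from gnal2. They were lowest in actb1 sponge 3. Fibroblast and meningeal genes summed to 213 to 389, 159 to 414 and 176 to 234 CPM. The highest sums were in kif5a sponge 2 and actb1 sponge 3. Against wild type, 19 of the 20 photoreceptor genes tested were positive in actb1 sponge and 18 in kif5a sponge, with median log2 changes of 3.86 and 3.29. Of the 16 leukocyte genes tested, 2 were positive in actb1 sponge and 0 in kif5a sponge (medians -0.27 and -0.87). Of the 7 muscle genes tested, 6 were positive in actb1 sponge and 0 in kif5a sponge (medians 0.69 and -1.86). The part of these cell types in the results on cilia genes was not tested beyond the fits without the photoreceptor-high and leukocyte-high libraries. In bulk tissue, fewer cells of a type and less RNA per cell cannot be told apart.

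Cilia genes were mostly transcripts of low level in the wild-type brain. Scaled to gene length, the median over the 90 genes was 1.45 CPM per kilobase in wild type, against 5.56 CPM per kilobase over all genes tested, and 31 of the 90 were above 2 CPM per kilobase. The highest was dnaaf9, at 75.5 CPM per kilobase, a relative of a ciliate protein that packages outer dynein arms. CFAP20, a protein of the doublet's inner junction, followed at 23.2 CPM per kilobase. SPAG9, a scaffold that links cargo to microtubule motors and is not specific to cilia, stood at 21.3 CPM per kilobase. The genes dnaaf9, SPAG9, SPAG7 and spag9a together held between 37.8% and 53.7% of the summed CPM of the 90 genes in a library.

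Among the genes of the motility machinery itself, wild-type levels were lower. The regulatory-complex gene DRC3 had 10.7 CPM per kilobase, and CCDC39, part of the molecular ruler that sets where inner arms attach, had 6.42 CPM per kilobase. Of the spoke-head gene RSPH1 there were 4.97 CPM per kilobase. The outer-arm intermediate chain DNAI1 had 2.35 CPM per kilobase, dnah5l, the highest of the heavy chains, 1.93 CPM per kilobase, ROPN1L, a spoke-associated protein, 1.56 CPM per kilobase and TEKT1 1.06 CPM per kilobase. By family, the median in wild type was 6.61 CPM per kilobase for spag genes and 3.53 for drc genes. It was 1.84 for both dnaaf and rsph genes, 1.44 for cfap, 1.12 for dnai, 0.909 for tekt and 0.563 for dnah genes. The lowest gene was the heavy chain dnah9l, at 0.0640 CPM per kilobase.

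**Figure D1:**
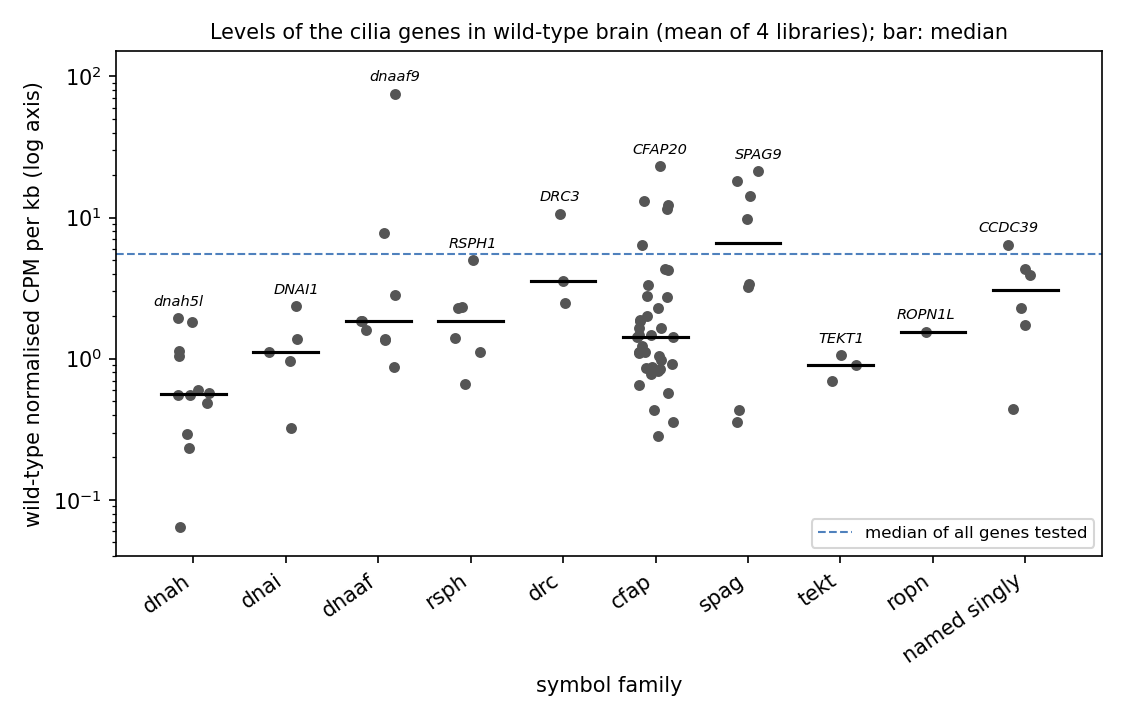
Level per gene length of the 90 cilia genes in wild-type brains (mean of 4 libraries, CPM per kilobase, log axis), by gene family; each point is a gene. The spag family and dnaaf9, at 75.5 CPM per kilobase, sit highest, and the dynein heavy chains lowest, with a median of 0.563 CPM per kilobase.

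Few cilia genes differed between the groups. A gene was called where edgeR's quasi-likelihood p, adjusted over all 19645 genes by the Benjamini-Hochberg method, was under 0.05. Against wild type, actb1 sponge brains had 2 of the 90 genes called higher, RSPH4A and spef2, where 0.28% of all genes were called higher. None was called lower, where 0.458% of all genes were. At an unadjusted p under 0.05 in the same edgeR test, 15 of the 90 were higher in actb1 sponge brains, where 7.8% of all genes were, and 7 were lower, where 8.85% of all genes were. DESeq2 called 4 higher and 2 lower in actb1 sponge brains, where it called 2.09% of all genes higher and 2.3% lower. Those beyond the 2 of edgeR were CFAP97 and dnah9l, higher, and cfap221 and spag9a, lower. Shares of DESeq2 are over the genes it gave an adjusted p, a wider set than the 19645 of edgeR. These were 22782 genes in actb1 sponge against wild type and 22265 in each other comparison. In each comparison 1 cilia gene had no adjusted p from DESeq2. In kif5a sponge brains against wild type, 2 were called higher, armc9 and spef2, both chosen singly, where 0.112% of all genes were. None was called lower, where 0.422% of all genes were, and DESeq2 called 2 higher and none lower, where it called 0.723% of all genes higher and 1.39% lower. At an unadjusted p under 0.05 the edgeR test had 8 higher in kif5a sponge brains, where 4.54% of all genes were, and 4 lower, where 6.78% of all genes were. Both lines were compared with the same 4 wild-type libraries, so their results are not independent of each other.

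The median log2 change of the 90 genes was 0.05 in actb1 sponge against wild type, with 54 of 90 positive, beside -0.03 over all genes tested. In kif5a sponge against wild type it was 0.05, with 53 of 90 positive, beside -0.01 over all genes. The 95% interval of the change stayed within 2-fold in either direction for 60 of the 90 genes in actb1 sponge and for 63 in kif5a sponge. It reached past 2-fold for the remaining 30 genes in actb1 sponge and 27 in kif5a sponge. The 90 genes varied more between libraries of a group than genes at large. Their median coefficient of variation beyond counting error was 0.269, against 0.195 over all genes tested. The 2 sets were not matched for level, and cilia genes were mostly low. The part of low level and of single libraries in this spread was not tested.

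**Figure D2:**
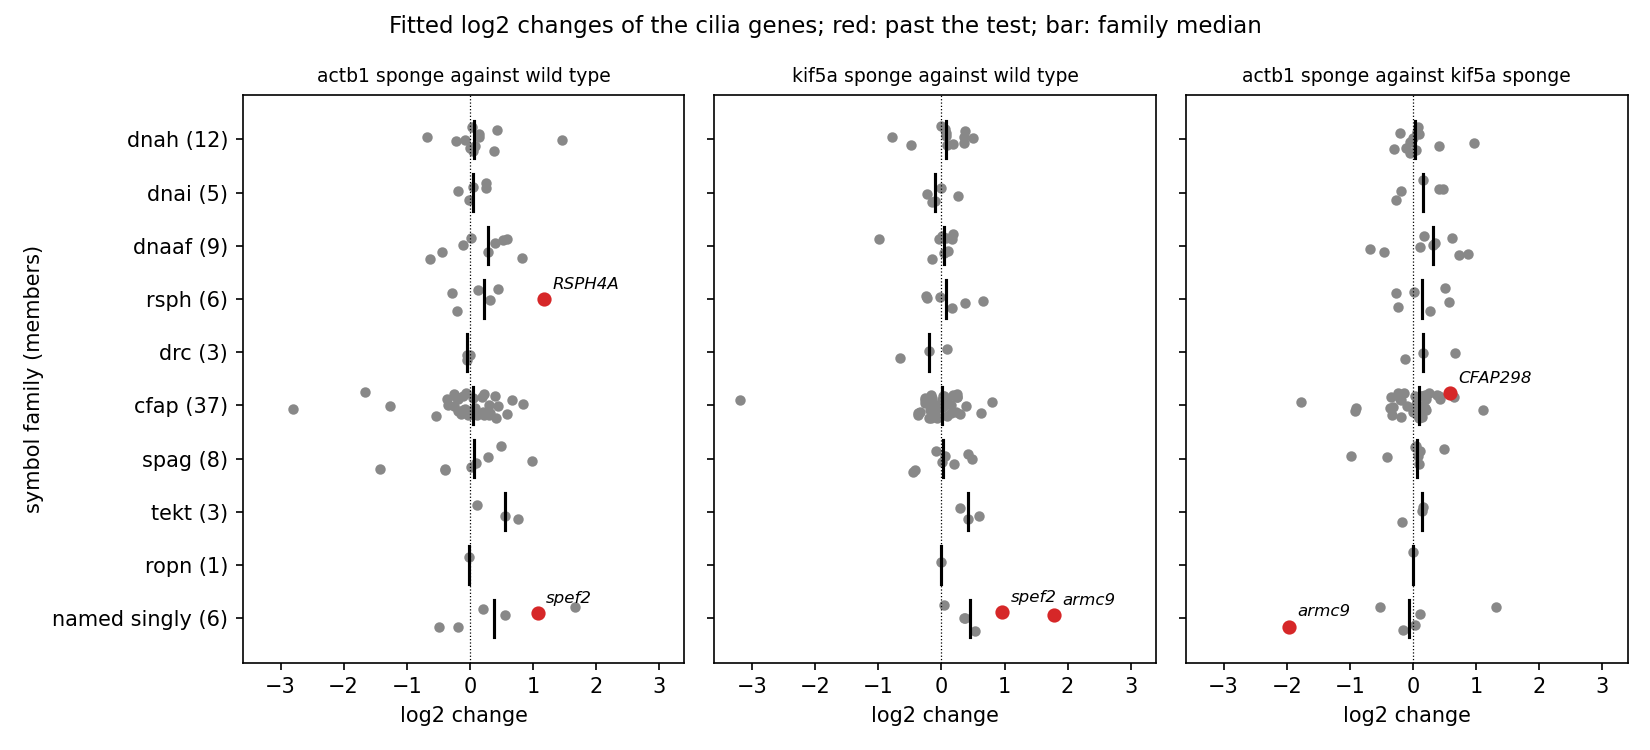
Fitted log2 change of each of the 90 cilia genes in 3 comparisons (actb1 sponge against wild type, kif5a sponge against wild type, actb1 sponge against kif5a sponge), by gene family, with genes called at an adjusted p under 0.05 marked. Most points lie near 0; RSPH4A and spef2 (1.17 and 1.08, actb1 sponge), armc9 and spef2 (1.78 and 0.96, kif5a sponge) are the genes called against wild type.

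RSPH4A, which encodes a subunit of the radial spoke head and is mutated in human primary ciliary dyskinesia, rose in actb1 sponge brains. Its level was 8.65, 8.69, 12.6 and 7.10 CPM in the 4 actb1 sponge libraries, 6.56, 7.89, 5.38 and 6.14 CPM in the kif5a sponge libraries and 3.95, 4.13, 4.46 and 3.88 CPM in the wild-type libraries. Each sponge library of either line was above each wild-type library. The difference of actb1 sponge from wild type was 1.17 ± 0.19 on the log2 scale (2.26-fold; log2 differences are given ± SE throughout), with an adjusted p of 0.0136 in edgeR's quasi-likelihood test. In kif5a sponge brains the difference from wild type was 0.66 ± 0.18 on the log2 scale, which did not pass (unadjusted p = 0.00361, adjusted p = 0.2, edgeR). The direct difference of actb1 sponge from kif5a sponge, 0.51 ± 0.18, did not pass either (adjusted p = 0.191, edgeR), with an interval of 0.12 to 0.91. The actb1 sponge library with wild-type levels of photoreceptor genes, number 4, had 7.10 CPM of RSPH4A. That was the lowest of the 4 actb1 sponge libraries and above the wild-type maximum of 4.46 CPM. The part of photoreceptor content in RSPH4A was not tested beyond the fit that follows. The call was lost without the 5 libraries high in photoreceptor genes, where actb1 sponge 4 stands alone and is assumed to vary like the other groups (log2 difference 0.84, adjusted p = 0.0591, edgeR), and without wild type 2 and 4 (1.14, adjusted p = 0.125, edgeR). It held in the other 13 of 15 alternatives, over which with these 2 the adjusted p was 2.06e-06 to 0.125 (edgeR or DESeq2).

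The other spoke genes did not pass in either line. RSPH1, also of the spoke head, had 5.32, 4.60, 10.1 and 5.81 CPM in actb1 sponge libraries, 5.92, 3.22, 3.89 and 4.46 CPM in kif5a sponge and 4.58, 5.96, 5.91 and 4.31 CPM in wild-type libraries, and the groups overlapped. Over the 6 rsph genes the median log2 change was 0.23 in actb1 sponge and 0.08 in kif5a sponge, each against wild type, with 4 of the 6 positive in actb1 sponge and 3 in kif5a sponge.

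The central-pair gene spef2, whose protein sits on a projection of the central microtubules and whose loss in mice impairs sperm and airway cilia, rose in both lines. It had 20.99, 22.1, 26.0 and 14.7 CPM in actb1 sponge libraries and 22.8, 18.2, 19.8 and 16.6 CPM in kif5a sponge libraries. Wild-type libraries had 11.9, 9.65, 9.23 and 8.90 CPM, and none overlapped with a sponge library. The log2 difference from wild type was 1.08 ± 0.17 in actb1 sponge (2.11-fold, adjusted p = 0.0141) and 0.96 ± 0.17 in kif5a sponge (1.95-fold, adjusted p = 0.0264), both by edgeR's quasi-likelihood test. Between the 2 lines the difference was 0.12 ± 0.17, with an interval of -0.25 to 0.48 (adjusted p = 0.761, edgeR). Leaving out 1 library at a time, the actb1 sponge call held in 8 of 8 fits and the kif5a sponge call in 2 of 8, being lost without wild type 2, 3 or 4 and without kif5a sponge 1, 2 or 3. In actb1 sponge the call was lost with those 2 groups alone in the fit (adjusted p = 0.053, edgeR), without the 5 photoreceptor-high libraries (log2 difference 0.62, adjusted p = 0.143) and without wild type 2 and 4 (0.99, adjusted p = 0.144), within a range of 1.42e-06 to 0.144 over 15 alternatives. In kif5a sponge it was also lost without the photoreceptor-high libraries (0.99, adjusted p = 0.155, edgeR) and without wild type 2 and 4 (0.87, adjusted p = 0.276, edgeR), within a range of 3.86e-05 to 0.276 over 14 alternatives.

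**Figure D3:**
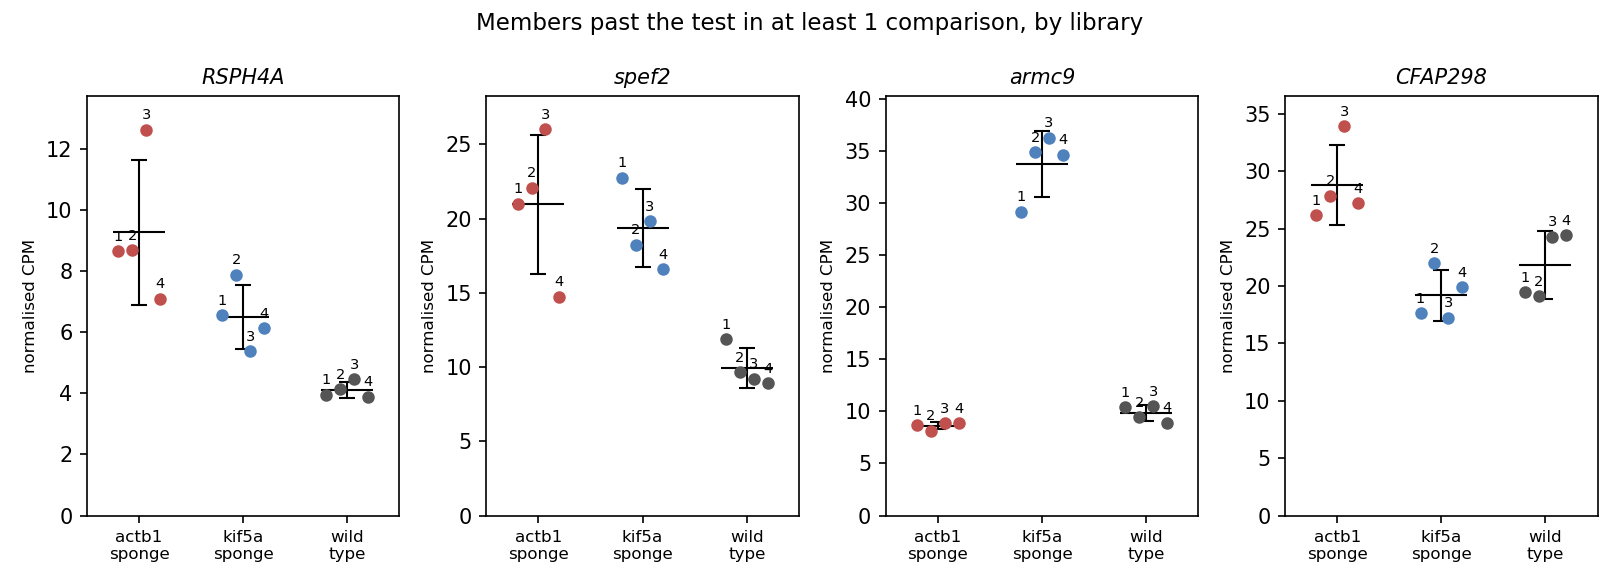
Normalised CPM of RSPH4A, spef2, armc9 and CFAP298 in each library of actb1 sponge, kif5a sponge and wild-type brains; points are libraries, and the bar and whiskers show the mean and SD of 4. For RSPH4A and spef2 each sponge library lies above each wild-type library; for armc9 the kif5a sponge libraries, 29.2 to 36.3 CPM, stand apart from the other 8.

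Of the other central-apparatus genes, cfap221 was low in actb1 sponge brains, at 1.56, 1.70, 1.96 and 1.49 CPM. Levels were 4.56, 3.81, 2.91 and 1.46 CPM in kif5a sponge and 3.09, 4.91, 3.77 and 4.40 CPM in wild-type libraries. All 4 actb1 sponge libraries lay below all 4 wild-type ones, while kif5a sponge overlapped with both. The difference of actb1 sponge from wild type, -1.27 ± 0.30 on the log2 scale, did not pass (adjusted p = 0.0855, edgeR) but did in DESeq2. The central-pair gene spef1, which bundles microtubules, had 1.47 to 1.51 CPM in actb1 sponge libraries 1 to 3 and 0.444 CPM in number 4, with 1.16, 1.28, 1.22 and 1.18 CPM in kif5a sponge and 1.19, 0.542, 0.953 and 0.663 CPM in wild-type libraries. It did not pass in any comparison, with log2 differences from wild type of 0.56 ± 0.37 in actb1 sponge and 0.53 ± 0.37 in kif5a sponge.

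Among the cilia genes called, armc9 in kif5a sponge brains had the largest change. Its protein acts at the base of the cilium, is mutated in human Joubert syndrome, and is tied to primary cilia rather than to the motility apparatus. The level was 8.68, 8.15, 8.86 and 8.88 CPM in actb1 sponge, 29.2, 34.9, 36.3 and 34.7 CPM in kif5a sponge and 10.4, 9.45, 10.5 and 8.90 CPM in wild-type libraries. The kif5a sponge libraries did not overlap with any other library. Against wild type, armc9 rose by 1.78 ± 0.10 on the log2 scale in kif5a sponge (3.43-fold, adjusted p = 4.23e-06, edgeR). In actb1 sponge it differed from wild type by -0.18 ± 0.10, which did not pass (adjusted p = 0.378, edgeR), although the actb1 sponge libraries all lay below the wild-type ones. The direct difference of actb1 sponge from kif5a sponge was -1.96 ± 0.10 (adjusted p = 2.77e-06, edgeR). Both kif5a sponge differences were called in each alternative fitted.

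The motor families showed no calls. Of the 12 dynein heavy chains, 9 had a positive log2 change in each line, with a median of 0.07 in actb1 sponge and 0.08 in kif5a sponge. The outer-arm heavy chain DNAH5 had 7.78, 8.50, 10.6 and 4.04 CPM in actb1 sponge libraries, 8.86, 8.17, 8.32 and 6.86 CPM in kif5a sponge and 8.09, 8.43, 6.21 and 8.29 CPM in wild-type libraries. It was chosen after its values were seen, for its wide spread within actb1 sponge brains, where the lowest and the highest of the 12 libraries both lie. The heavy chain dnah9l had 2.83, 3.05, 2.71 and 0.686 CPM in actb1 sponge, 0.938, 1.35, 1.22 and 1.25 CPM in kif5a sponge and 0.820, 0.711, 0.801 and 1.04 CPM in wild-type libraries. Actb1 sponge libraries 1 to 3 were above the rest and number 4 was the lowest of the 12. Its log2 difference of actb1 sponge from wild type was 1.46 ± 0.38 (adjusted p = 0.102, edgeR). It was called by edgeR without actb1 sponge 4 (1.76, adjusted p = 0.00851) and by DESeq2, and without the photoreceptor-high libraries it was -0.24 (adjusted p = 0.79), within a range of 0.00851 to 0.79 over 15 alternatives. Of the 5 intermediate chains, 3 were positive in actb1 sponge and 1 in kif5a sponge against wild type, with medians of 0.05 in actb1 sponge and -0.10 in kif5a sponge. DNAI1 averaged 6.72 ± 2.20 CPM in actb1 sponge, 5.05 ± 0.869 CPM in kif5a sponge and 5.61 ± 0.984 CPM in wild-type brains (SD, n = 4 each) and passed in no comparison.

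The dynein assembly factors had a median log2 change of 0.28 in actb1 sponge and 0.04 in kif5a sponge against wild type, 6 of 9 positive in each, and none passed. The most abundant, dnaaf9, had 233, 281, 199 and 140 CPM in actb1 sponge, 312, 314, 307 and 238 CPM in kif5a sponge and 305, 233, 286 and 332 CPM in wild-type libraries. Actb1 sponge 1, 3 and 4 lay below every wild-type library, the first of them by less than 1 CPM, and number 2 did not; the log2 difference from wild type of -0.44 ± 0.19 did not pass (adjusted p = 0.26, edgeR). CFAP298, which zebrafish need for dynein arm assembly and for ciliary motility, had 26.2, 27.9, 33.9 and 27.2 CPM in actb1 sponge, 17.7, 22.0, 17.2 and 19.9 CPM in kif5a sponge and 19.5, 19.1, 24.3 and 24.4 CPM in wild-type libraries. Every actb1 sponge library was above every other library, by a small margin over the highest wild-type one. Against wild type the log2 difference was 0.40 ± 0.13 in actb1 sponge and -0.19 ± 0.13 in kif5a sponge, and neither passed (adjusted p = 0.152 and 0.641, edgeR).

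The molecular ruler genes, CCDC39 and its partner ccdc40, had unlike patterns over the libraries. CCDC39 was 41.7, 50.8, 66.2 and 45.5 CPM in actb1 sponge, 6.14, 25.1, 24.5 and 26.7 CPM in kif5a sponge and 28.2, 5.66, 25.5 and 4.78 CPM in wild-type libraries. Wild-type libraries fell into a high pair and a low pair. The low wild-type pair, numbers 2 and 4, is the pair with high leukocyte genes, and kif5a sponge 1, with the same low CCDC39, had leukocyte genes at 872 CPM, the lowest of the 12. Any link between leukocyte genes and the level of CCDC39 was not tested. The log2 difference from wild type was 1.67 ± 0.57 in actb1 sponge (adjusted p = 0.175, edgeR) and 0.36 ± 0.56 in kif5a sponge (adjusted p = 0.884, edgeR). All 4 actb1 sponge libraries lay above the other 8. For ccdc40 the levels were 10.3, 12.3, 12.9 and 8.52 CPM in actb1 sponge, 18.5, 12.0, 16.4 and 16.3 CPM in kif5a sponge and 23.0, 12.4, 12.8 and 13.5 CPM in wild-type libraries. The groups overlapped, and no comparison passed.

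The regulatory complex, the tektins and the ropporin gene gave no call. All 3 drc genes were slightly negative in actb1 sponge against wild type, with a median of -0.04, and DRC3, the most abundant of them per length in wild type, had 17.8 ± 2.23 CPM in actb1 sponge, 19.4 ± 1.79 CPM in kif5a sponge and 18.3 ± 2.78 CPM in wild-type brains. All 3 tektins were positive in both lines, with medians of 0.55 in actb1 sponge and 0.41 in kif5a sponge, and none passed. TEKT4 had 2.49, 2.36, 3.86 and 1.98 CPM in actb1 sponge, 2.81, 2.80, 2.08 and 1.90 CPM in kif5a sponge and 1.19, 1.83, 1.60 and 1.70 CPM in wild-type libraries. Each sponge library was above each wild-type library. The log2 difference from wild type was 0.76 ± 0.26 in actb1 sponge (adjusted p = 0.173, edgeR) and 0.60 ± 0.26 in kif5a sponge (adjusted p = 0.404, edgeR), and neither passed. It was named after its values were seen. ROPN1L was 1.85 ± 0.286 CPM in actb1 sponge, 1.85 ± 0.605 CPM in kif5a sponge and 1.85 ± 0.588 CPM in wild type.

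Of the foxj1 factors, foxj1b had 6.45, 6.22, 5.87 and 6.01 CPM in actb1 sponge, 8.44, 6.85, 6.44 and 5.67 CPM in kif5a sponge and 5.52, 5.32, 5.68 and 4.69 CPM in wild-type libraries. The actb1 sponge libraries all lay above the wild-type ones, and 1 kif5a sponge library did not. The log2 difference from wild type was 0.21 ± 0.14 in actb1 sponge and 0.37 ± 0.14 in kif5a sponge, neither of which passed (adjusted p = 0.472 and 0.354, edgeR). The gene cfap53, needed for left-right asymmetry in zebrafish, had 7.19, 6.72, 11.59 and 10.2 CPM in actb1 sponge, 9.96, 10.1, 14.6 and 10.4 CPM in kif5a sponge and 7.56, 7.79, 6.63 and 6.96 CPM in wild-type libraries. Kif5a sponge and wild-type libraries did not overlap. The log2 difference of kif5a sponge from wild type, 0.63 ± 0.19, did not pass (adjusted p = 0.238, edgeR).

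Counting genes whose libraries did not overlap, 9 of the 90 were higher and 3 lower in actb1 sponge than in wild type. Over all genes tested, 4.08% were higher and 5.25% lower without overlap. The 9 were CCDC39, CFAP157, CFAP298, CFAP97, foxj1b, RSPH4A, spag1b, spef2 and TEKT4, and the 3 were armc9, cfap221 and spag9a. In kif5a sponge 6 were higher than in wild type, where 4.26% of all genes were, and none lower, where 4.99% of all genes were. The 6 were armc9, cfap36, cfap53, RSPH4A, spef2 and TEKT4.

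Against kif5a sponge, actb1 sponge brains had 1 cilia gene called higher, CFAP298, where 0.641% of all genes were, and 1 called lower, armc9, where 0.54% of all genes were. At an unadjusted p under 0.05 in edgeR 11 were higher, where 8.19% of all genes were, and 7 were lower, where 8.06% of all genes were. Without overlap 5 were higher (CCDC39, CFAP157, CFAP298, CFAP299 and DNAI7), where 4.68% of all genes were, and 2 lower (armc9 and CFAP68), where 5.7% of all genes were. CFAP68 had 0 actb1 sponge, 2 kif5a sponge and 2 wild-type libraries above the minimum. It was kept only through the groups where it is high, so its lower level in actb1 sponge is no support for a difference. The same holds for its place among the genes lower at an unadjusted p under 0.05 (edgeR), here and in actb1 sponge against wild type. DESeq2 called 2 higher and 1 lower, where it called 2.37% of all genes higher and 2.13% lower. The median log2 difference over the 90 genes was 0.08, with 57 positive, beside a median of -0.0035 over all genes. Marker genes of other cell types differed in this comparison too. The 7 skeletal muscle genes tested were all positive in actb1 sponge against kif5a sponge, with a median log2 difference of 2.48 and 4 called by DESeq2, and the 16 leukocyte genes were all positive, with a median of 0.65 and 1 called by DESeq2. EdgeR called none of either list, with 4 muscle and 2 leukocyte genes at an unadjusted p under 0.05, and their part in the cilia genes was not tested.

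CFAP298 was 0.59 ± 0.13 on the log2 scale higher in actb1 sponge than in kif5a sponge (adjusted p = 0.0491, edgeR). It passed in none of the 8 fits that leave out 1 library, where the log2 difference lay between 0.51 and 0.66, and in 2 of the 7 other alternatives. CFAP157, which sperm flagella need in mice, had 3.96, 4.02, 9.14 and 4.12 CPM in actb1 sponge and 2.33, 2.35, 3.18 and 2.03 CPM in kif5a sponge libraries, and the groups did not overlap. Wild-type libraries had 2.87, 2.27, 3.20 and 3.55 CPM. The log2 difference of actb1 sponge from kif5a sponge, 1.11 ± 0.29, did not pass in edgeR (adjusted p = 0.0927) but did in DESeq2, and CFAP299, at 0.66 ± 0.23, did not pass either (adjusted p = 0.181, edgeR).

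Within actb1 sponge, many cilia genes stood high in 1 library and low in another. Each gene's deviation from its mean over the 12 libraries was taken on the log2 scale, and the median deviation of the 90 genes was 0.49 in actb1 sponge 3 and -0.38 in actb1 sponge 4, against medians between -0.18 and 0.19 in the other 10 libraries. Actb1 sponge 3 was the highest of the 12 libraries for 46 of the 90 genes (51.1%), where it was so for 22.9% of all genes tested. Actb1 sponge 4 was the lowest for 36 (40%), where it was so for 17.8% of all genes. All 12 heavy chains were above their mean in actb1 sponge 3 and below it in actb1 sponge 4, which was the lowest library for 11 of them. Without the 4 abundant genes named above, the remaining 86 summed to 586, 602, 787 and 517 CPM in actb1 sponge, 624, 561, 581 and 578 CPM in kif5a sponge and 557, 549, 563 and 522 CPM in wild-type libraries. Actb1 sponge 3 also stood apart in counts from mitochondrial genes, at 2.24% of its total against 9.37% to 14.0% in the other 11 libraries. It had the highest summed levels of the 12 for the photoreceptor, leukocyte and skeletal muscle lists. In the leukocyte sum, apoeb held 1223 CPM in actb1 sponge 3, against 261 to 484 CPM in the other 11 libraries. The leukocyte genes ptprc, CORO1A and LCP1 were higher in wild type 2 and 4 than in actb1 sponge 3, while csf1ra, ccl34b.1 and lyz were highest in actb1 sponge 3. Actb1 sponge 3 was the lowest of the 12 for the sum of neuronal genes, at 1139 CPM against 1347 to 1747 CPM in the other 11 libraries. ELAVL3, ELAVL4 and map2 were lowest there. In contrast gap43 had 222 CPM, nefla 265 CPM and syt1b 2.82 CPM there, against 153 to 206, 215 to 287 and 1.15 to 1.79 CPM in wild type. For the sum of oligodendrocyte genes it was also the lowest, at 12232 CPM against 14561 to 25666 CPM, but mag, cldnk and SOX10 were not lowest there. Choroid plexus genes were low together with the cilia genes in library 4, where their sum of 40.7 CPM was the lowest of the 12, against 54.5 to 84.0 CPM in the other 11. Members of that list were not alike. The gene clic6 had 25.1 CPM in actb1 sponge 3, the highest of the 12, and 1.01 CPM in actb1 sponge 4, the lowest, against 3.70 to 10.1 CPM in the other 10 libraries. An SLC4A5 identifier was likewise highest in actb1 sponge 3, at 12.9 CPM, and lowest in actb1 sponge 4, at 3.35 CPM. OTX2 was instead the lowest of the 12 in actb1 sponge 3, at 24.1 CPM, against 32.4 CPM in actb1 sponge 4. KL had 1.31 CPM in actb1 sponge 3 and 1.61 CPM in actb1 sponge 4. The part of these cell types and of RNA quality in the cilia genes was not tested. Without actb1 sponge 3 and 4, a choice made after seeing the data, RSPH4A and spef2 were still called higher against wild type.

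**Figure D4:**
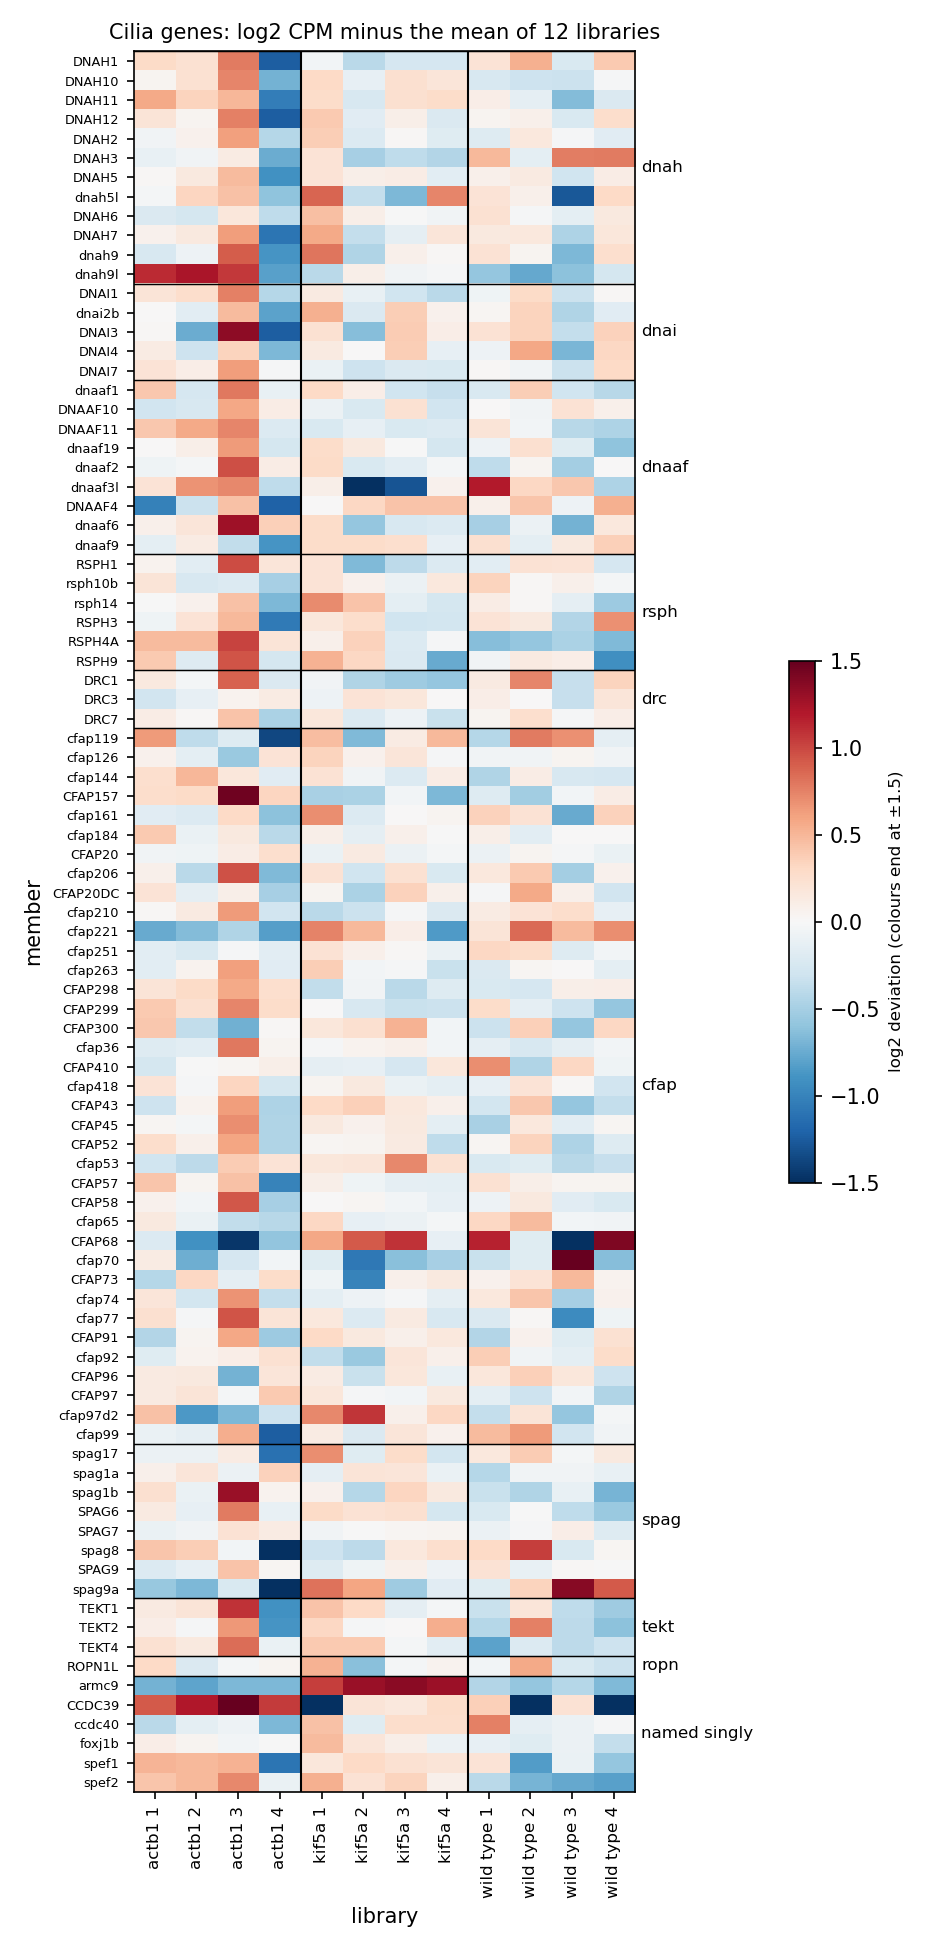
Deviation of each of the 90 cilia genes (rows, ordered by family) from its mean over the 12 libraries, on the log2 scale, in actb1 sponge, kif5a sponge and wild-type libraries (columns). The column of actb1 sponge 3 is mostly above the mean (median 0.49) and that of actb1 sponge 4 mostly below (median -0.38).

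Some genes were uneven between libraries of a group, and for cfap70 a single library set the difference. The gene cfap70 had 77.6 CPM in wild type 3 (2036 counts), 28.1 times the median of the other 11 libraries, which lay between 1.63 and 3.83 CPM. Its log2 difference of kif5a sponge from wild type was -3.19 ± 1.02 and did not pass (adjusted p = 0.261, edgeR), and without wild type 3 it was -0.20. The cargo scaffold spag9a had 35.2, 32.7, 44.4 and 16.4 CPM in actb1 sponge, 92.0, 79.0, 36.0 and 46.5 CPM in kif5a sponge and 45.9, 65.9, 134 and 98.5 CPM in wild-type libraries. Each actb1 sponge library lay below each wild-type one, and the difference of -1.42 ± 0.39 did not pass in edgeR (adjusted p = 0.113) but did in DESeq2. Among the 90 genes, 3 had a coefficient of variation beyond counting error above 0.5, cfap70, CFAP68 and CCDC39, which is 3.33% of the cilia genes, against 6.63% of all genes tested.

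**Figure D5:**
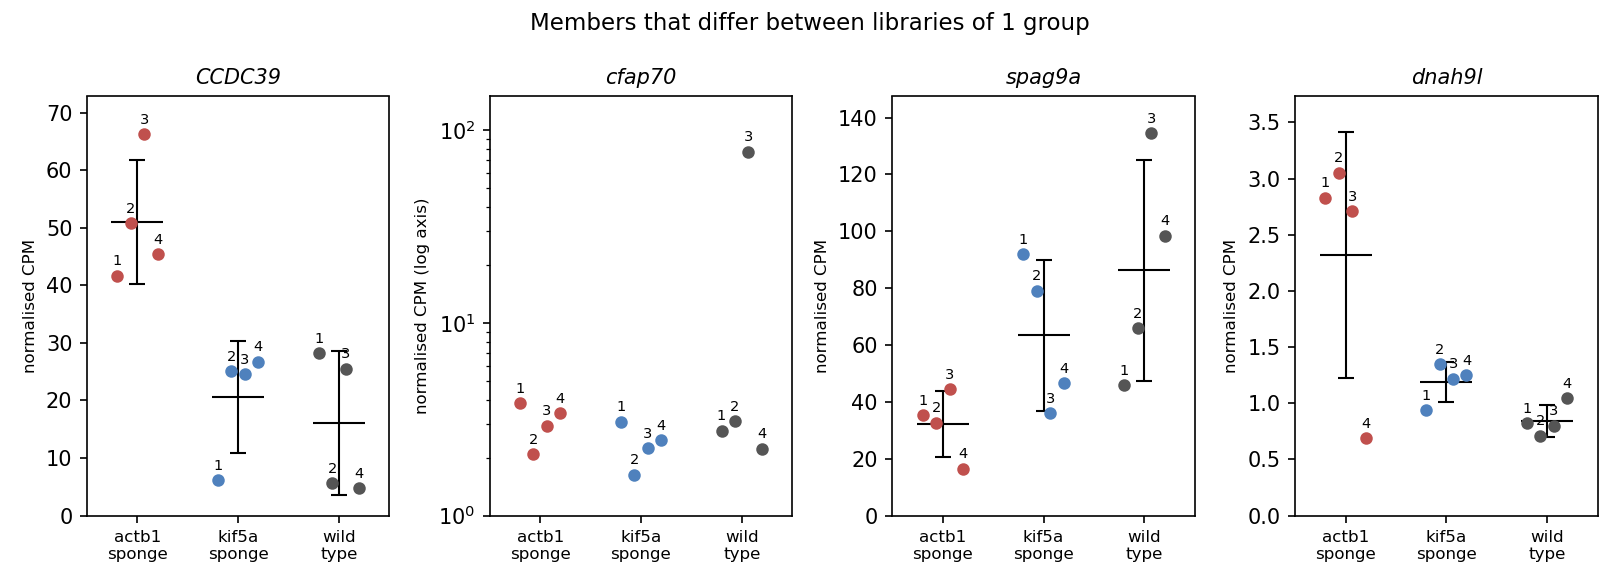
Normalised CPM in each library of CCDC39, cfap70 (log axis), spag9a and dnah9l, which have uneven levels; points are libraries of actb1 sponge, kif5a sponge and wild type. Wild type 3 stands at 77.6 CPM for cfap70, and actb1 sponge 4 is the lowest library for dnah9l at 0.686 CPM.

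Other ciliary genes, taken from lists of the wider pathway, were examined by the same fit. Of 120 genes tested in 5 lists, none was called in any of the 3 comparisons by edgeR. The unadjusted p in edgeR was under 0.05 for 8 higher and 12 lower in actb1 sponge against wild type, for 3 higher and 8 lower in kif5a sponge against wild type, and for 11 higher and 9 lower in actb1 sponge against kif5a sponge. Over all genes tested the same shares were 7.8% higher and 8.85% lower in actb1 sponge against wild type, 4.54% higher and 6.78% lower in kif5a sponge against wild type, and 8.19% higher and 8.06% lower in actb1 sponge against kif5a sponge. DESeq2, whose shares over all genes are given above, called 3 higher and 2 lower in actb1 sponge and 1 higher and 3 lower in kif5a sponge against wild type, and 3 higher and 2 lower in actb1 sponge against kif5a sponge. The intraflagellar transport trains (25 genes), which carry cargo along the axoneme, had median log2 changes of -0.0048 in actb1 sponge and -0.04 in kif5a sponge. The BBSome and its chaperonins (13 genes), which sort membrane cargo, had 0.01 in actb1 sponge and -0.03 in kif5a sponge. Genes of the transition zone and ciliary base (26 genes) had -0.06 in actb1 sponge and -0.02 in kif5a sponge. Genes of the transcriptional control of multiciliated cells (12 genes) had -0.11 in actb1 sponge and 0.0027 in kif5a sponge. Single genes of that list ranged over -0.87 to 2.94 in actb1 sponge and -1.02 to 2.07 in kif5a sponge. DESeq2 called 0 of them in actb1 sponge and 2, both lower, in kif5a sponge. Other motile cilia genes (44 genes) had 0.08 in actb1 sponge and 0.0042 in kif5a sponge, with 23 positive in each line.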

How the data were processed

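TruSeq RNA kits, version 2, were applied to total RNA, per the labels' protocols; such libraries carry no strand mark, so reads of a gene and of its antisense partner cannot be told apart. The submitters' processing notes list STAR 2.4.1d, featureCounts 1.4.6-p4, bcl2fastq 1.8.4 and build GRCz10. The sources used here do not give the annotation release. Counts per gene, in whole numbers, were deposited by the authors and entered every test. RPKM values were deposited by the authors too. By their arithmetic these were divided by library totals recycled down the genes: over 6540 genes the ratio of count to RPKM varied within a gene by a median coefficient of 1.48e-05 with recycled totals and of 0.179 with each library's own. RPKM therefore served to recover gene lengths and nothing else.

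Of 32105 identifiers, 26269 (81.8%) had a symbol in the supplied name table, many of them the human orthologue's in capitals. The cilia genes and the lists were chosen with earlier results of these data known. Genes with more than 0.5 CPM in at least 4 libraries were tested with edgeR 4.0.16 in R 4.3.3, with 1 mean per group, TMM normalisation and all 12 libraries in the fit. The quasi-likelihood test's p-values were adjusted over the 19645 genes by the Benjamini-Hochberg method, and the procedure was tested on simulated data. Levels are CPM after TMM normalisation, and SE values are those implied by the test. Intervals have a level of 95%. Deviations used log2 CPM with a prior count of 2. DESeq2 1.42.0 was an alternative. No 2 libraries of a group were near-identical: over the 18 pairs, chi-square divided by its degrees of freedom was 9.64 to 265. The pairs of actb1 sponge 3 with actb1 sponge 1, 2 and 4 had the highest values, 257, 221 and 265. Without actb1 sponge 3 the highest was 48.6, between actb1 sponge 2 and 4.

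The genes named are those called in any comparison, the 5 of smallest unadjusted p in each comparison, those the choice names singly, and the one of each family with the highest wild-type level per length; names outside this rule were added after their values were seen. Genes of the pathway lists were to be named where called. A planned description of promoter motifs was not run.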

Additional observations from a re-analysis of the deposited data

Results flagged for a closer look

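In 24 named cilia genes, each group of 4 libraries was screened for a library far from the others by Dixon's criterion. Of 72 groups, 8 had one. The criterion's rate of about 1 in 20 is no yardstick for this count. Some of the genes were named for their values in these libraries, and the groups share the same 12 libraries. The gene cfap70 had 77.6 CPM in wild type 3, against 2.23 to 3.08 CPM in the other wild-type libraries. CFAP157 had 9.14 CPM in actb1 sponge 3, against 3.96 to 4.12 CPM in the other actb1 sponge libraries. In actb1 sponge 4, dnah9l had 0.686 CPM, against 2.71 to 3.05 CPM in the other 3, and spef1 had 0.444 CPM, against 1.47 to 1.51 CPM. In kif5a sponge 1, CCDC39 had 6.14 CPM, against 24.5 to 26.7 CPM in the other kif5a sponge libraries. The gene cfap53 had 14.6 CPM in kif5a sponge 3, against 9.96 to 10.4 CPM in the others, and dnaaf9 had 238 CPM in kif5a sponge 4, against 307 to 314 CPM. In wild type 1, ccdc40 had 23.0 CPM, against 12.4 to 13.5 CPM in the other wild-type libraries.

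The lines differed by a direct test for armc9, which was -1.96 on the log2 scale in actb1 sponge relative to kif5a sponge, and for CFAP298, which was 0.59 and passed in neither line against wild type. The sponge, the insertion and the background of a line cannot be told apart.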

How the results depend on the processing

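No paired analysis was possible because the labels give no replicate numbers; the numbers used follow accession order. Counts of cilia genes called moved with some settings. Under DESeq2 4 were higher and 2 lower in actb1 sponge against wild type, and 2 higher against kif5a sponge. Without the filter on low counts, none was higher in actb1 sponge than in kif5a sponge (0), and with only the 2 groups compared in the fit, 1 was higher in actb1 sponge than in wild type and 0 than in kif5a sponge. Without the 5 libraries high in photoreceptor genes, which leaves actb1 sponge 4 alone with its spread assumed equal to that of the other groups, 0 were higher in actb1 sponge than in wild type (median log2 change -0.34), 1 in kif5a sponge than in wild type, and 0 higher and 2 lower (armc9 and DNAH10) in actb1 sponge than in kif5a sponge (median -0.37). In that fit the log2 difference turned for dnah9l and spef1 in actb1 sponge against wild type, to -0.24 and -0.86, and for spef2 and spef1 in actb1 sponge against kif5a sponge, to -0.37 and -1.35. Without wild type 2 and 4, high in leukocyte genes, 0 were higher in actb1 sponge and 1 in kif5a sponge than in wild type, and 0 in actb1 sponge than in kif5a sponge; ccdc40 and CCDC39 in kif5a sponge against wild type were -0.18 and -0.38. Without actb1 sponge 3 and 4, an alternative chosen after seeing the data, 0 were higher in actb1 sponge than in kif5a sponge, and dnah9l was called higher than in wild type. Leaving out 1 library at a time, the count higher was 2 to 3 in actb1 sponge and 1 to 2 in kif5a sponge against wild type, and 0 to 1 in actb1 sponge against kif5a sponge; the log2 difference lay between -0.055 and 0.30 for ccdc40 in kif5a sponge against wild type and between -0.079 and 0.30 for spef1 in actb1 sponge against kif5a sponge. The cause was not tested. Calls of armc9 held in each setting, and those of RSPH4A and spef2 in actb1 sponge in 8 of 8 left-out fits. The 95% interval reached a median of 0.567 to either side of the estimate on the log2 scale in actb1 sponge against wild type, set by the spread between libraries as well as by counting error. Larger changes could also miss the adjusted threshold, such as 1.67 for CCDC39.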

Other observations

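Genes near the called cilia genes, in the order of the RefSeq table of assembly GRCz12tu, were examined after the results were seen, 5 on each side. Only tested genes with a unique symbol were taken as neighbours. Other genes may lie between them, and distances were not taken. Of the 10 neighbours of spef2 and the 10 of RSPH4A, none was called by edgeR in any comparison. At an unadjusted p under 0.05 in actb1 sponge against wild type, 1 neighbour of spef2 and 5 of RSPH4A passed, where 7.8% of all genes were higher and 8.85% lower. For spef2 it was EGFLAM, higher (1.06). For RSPH4A, selenow1 was higher (0.68), and gas2l2, spata22, pho and zbed4l2 were lower (-1.27, -0.53, -0.40 and -0.23). In kif5a sponge against wild type 2 neighbours of spef2 and 0 of RSPH4A passed, where 4.54% of all genes were higher and 6.78% lower. Those of spef2 were EGFLAM, higher (0.89), and bmpr1ba, lower (-0.39). In actb1 sponge against kif5a sponge 0 of spef2 and 3 of RSPH4A passed, where 8.19% of all genes were higher and 8.06% lower. Those of RSPH4A were selenow1, higher (0.45), and gas2l2 and pho, lower (-0.88 and -0.34).

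Beside armc9, 1 of 10 neighbours was called in kif5a sponge against wild type, where 0.112% of all genes were called higher and 0.422% lower. It was si:ch211-276k2.2, which rose by 4.77 on the log2 scale (adjusted p = 0.0377, edgeR). The log2 differences of the 10 ranged between -2.44 and 4.77. At an unadjusted p under 0.05, 2 neighbours of armc9 passed in actb1 sponge against wild type, 4 in kif5a sponge against wild type and 4 between the lines. Over all genes, in the same order, 7.8% were higher and 8.85% lower, 4.54% and 6.78%, and 8.19% and 8.06%. Those in actb1 sponge against wild type, rubcn and nmur1a, were lower, and those of the other comparisons had either sign. The nearest neighbour taken on 1 side, nmur1a, was -1.36 in actb1 sponge against wild type and did not pass (adjusted p = 0.0503, edgeR). Beside CFAP298, 1 of 10 neighbours was called in each comparison, where 0.28% of all genes were called higher and 0.458% lower in actb1 sponge against wild type, 0.112% and 0.422% in kif5a sponge against wild type, and 0.641% and 0.54% between the lines. At an unadjusted p under 0.05, 4 passed in actb1 sponge against wild type, 3 in kif5a sponge against wild type and 3 between the lines, with the shares over all genes as given for armc9. Those in kif5a sponge against wild type were all lower, and those of the other comparisons had either sign. The nearest neighbour taken on 1 side of CFAP298, si:dkey-18a10.3, fell by 2.27 on the log2 scale in kif5a sponge against wild type (adjusted p = 0.0058, edgeR). It was 2.59 higher in actb1 sponge than in kif5a sponge (adjusted p = 0.00233, edgeR), the comparison and direction in which CFAP298 was called. In the same comparison EVA1C was 0.46 and hunk, in the other direction, -0.66, and neither passed (adjusted p = 0.209 and 0.0595, edgeR). Any link of these neighbours to CFAP298 was not tested. The gene zgc:153345, also near CFAP298, fell by 2.54 in actb1 sponge against wild type (adjusted p = 0.0197, edgeR).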
